A study of Homo sapiens with 7 samples.

Results

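Integrins are cell-surface receptors made of 1 alpha and 1 beta chain, and laminins are secreted basement membrane proteins made of an alpha, a beta and a gamma chain. The family was followed at the transcript level in TE11 cells, a human line labelled as esophageal squamous cell carcinoma. Members were the rows of the deposited count table whose symbols name an integrin alpha chain, an integrin beta chain or a laminin chain. The rule found 38 genes among 60591 rows: 14 integrin alpha chains, 7 integrin beta chains, 5 chains of leukocyte integrins (ITGAD, ITGAL, ITGAM, ITGAX and ITGB2) and 12 laminin chains. The groups compared were 4 libraries from cells given 200 µM diclofenac for 48 h and 3 libraries from cells given 0.07% DMSO, the vehicle, for 48 h. Diclofenac blocks cyclooxygenases, the enzymes that make prostaglandins. All libraries come from a single cell line. The labels do not mention separate cultures: a p-value here is about the spread among these libraries, and that spread may be technical.

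Integrins join the matrix outside the cell to the actin or keratin cytoskeleton inside it, through adaptors such as talin and kindlin that bind the beta tail. The alpha chain largely sets the ligand: alpha 3, alpha 6 and alpha 7 bind laminins, alpha 1, alpha 2, alpha 10 and alpha 11 bind collagens, and alpha 5, alpha 8 and alpha V bind proteins that carry the short RGD motif, such as fibronectin. In squamous epithelium, laminin-332, which holds LAMA3 and LAMB3, anchors basal cells through ITGA6 with ITGB4 in hemidesmosomes and through ITGA3 with ITGB1.

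Total counts ran from 19878696 to 26490829 per library. Levels below are normalized CPM, counts scaled by the library's total and its TMM factor, and 3 counts were worth 0.116 to 0.146 normalized CPM. Markers of squamous basal cells were near 0 in both groups: KRT5, KRT14, KRT15 and TP63 had 1, 2, 3 and 5 counts in all diclofenac libraries, against 0, 3, 0 and 2 in all vehicle libraries, and KRT6A had none. KRT17 was the 1 of these 6 markers with enough counts to be tested, at 48 counts in all diclofenac and 13 in all vehicle libraries. Of 5 general epithelial markers, CDH1, EPCAM, KRT8 and KRT18 reached 1 CPM in all 7 libraries, at means of 3.00, 2.90, 20.4 and 56.9 normalized CPM under diclofenac and 2.43, 1.98, 9.91 and 67.7 under vehicle. The other, KRT19, was near 0, with 2 counts in all diclofenac and 1 in all vehicle libraries. The squamous basal keratins did not bear out the squamous label in either group. In bulk libraries, fewer cells of a type and less RNA per cell cannot be told apart.

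Under diclofenac, the laminin chains LAMB3, LAMA3 and LAMB2 rose while LAMB1, LAMA4 and LAMA1 fell. LAMA5, a laminin alpha chain of adult epithelia, did not pass the test given below. The receptor chains ITGA5, ITGA3, ITGAV, ITGA7 and ITGA6 rose while ITGAE fell. The fall of LAMA1 and smaller falls of ITGA8, ITGB5 and LAMC1 did not hold under every scaling. LAMB3 averaged 6.11 ± 0.918 normalized CPM under diclofenac and 1.70 ± 0.238 under vehicle (SD, n = 4 and 3), a 3.59-fold difference. ITGA5, the alpha chain of the fibronectin receptor, averaged 37.1 ± 1.99 under diclofenac and 23.1 ± 0.837 under vehicle, a 1.60-fold difference. The leukocyte chain ITGAM rose 9.85-fold at very low levels, 1.65 ± 0.0563 normalized CPM under diclofenac and 0.165 ± 0.0382 under vehicle.

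Of the 38 genes, 30 had enough counts to be tested with edgeR's quasi-likelihood test, and a gene was called at a Benjamini-Hochberg adjusted p under 0.05 over all 18311 tested genes. In that fit 13 of the 30 were higher, 7 were lower and 10 did not pass, while of all tested genes 59.7% were called, 30.2% higher and 29.5% lower. The median log2 fold change was 0.25 over the 30 and 0.02 over all tested genes. Only LAMB3 and ITGAM were called at 2-fold or more, a size reached upward by 6.52% and downward by 0.595% of all tested genes. In 23 of the 30 all diclofenac libraries lay on one side of all vehicle libraries, against 58.5% of all tested genes. Tested members such as ITGAM passed the count filter through the diclofenac libraries alone. The counts of calls above therefore describe the family and do not support a direction for it.

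**Figure D1:**
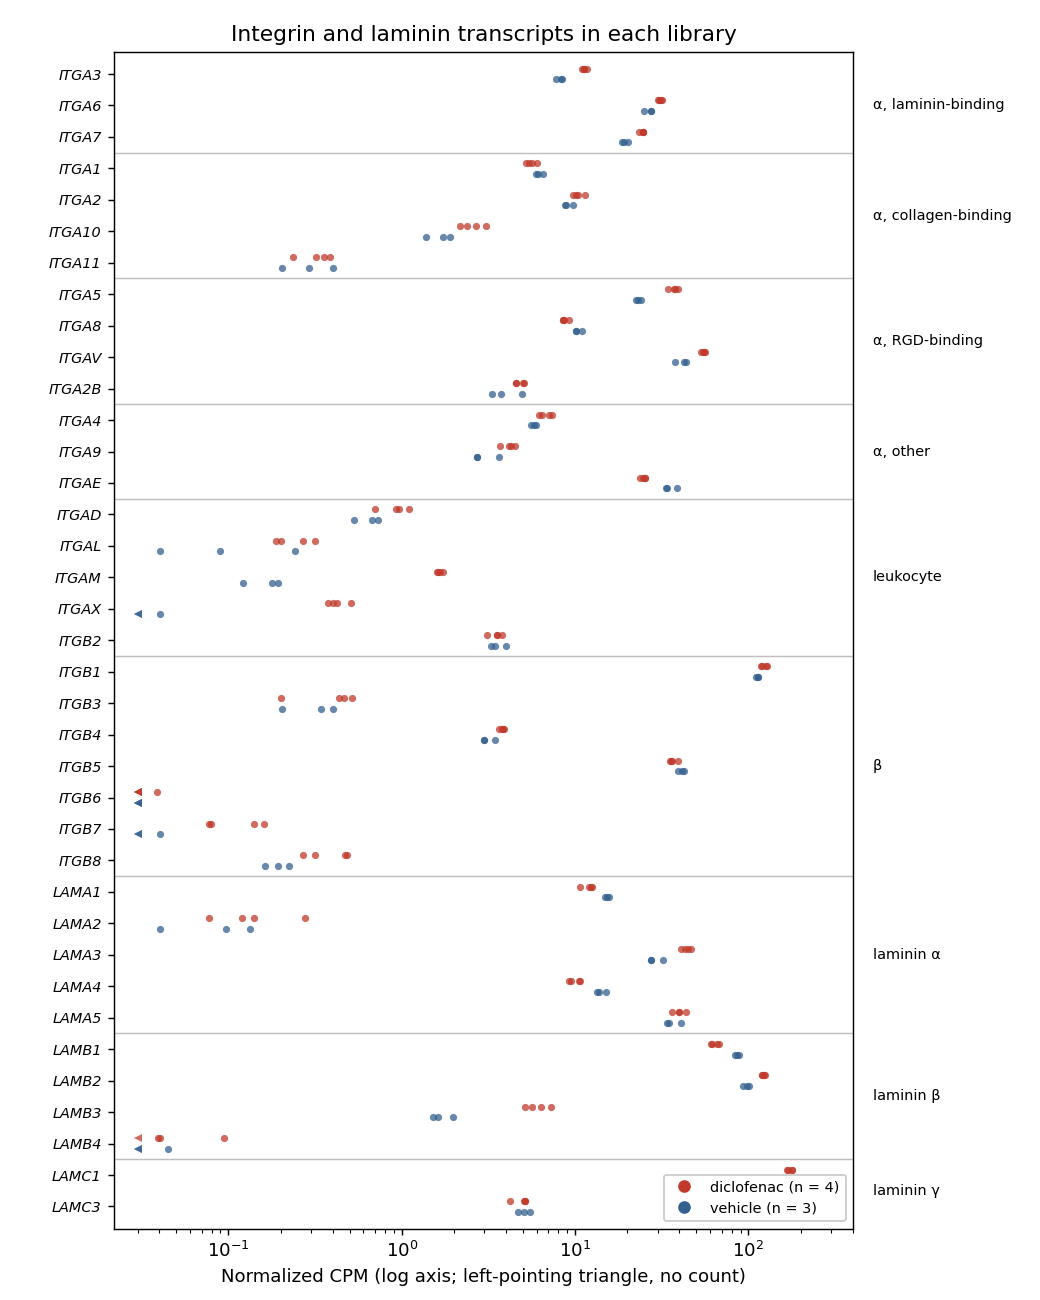
Normalized CPM (log axis) of 37 genes in each of the 4 diclofenac and 3 vehicle libraries, 1 point per library, grouped by role; triangles mark libraries with no count. LAMC1, ITGB1 and LAMB2 hold the highest values, and for ITGAM and LAMB3 every diclofenac point lies well to the right of every vehicle point.

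The directions depend on how libraries are scaled. Scaling by total counts alone shifted the all-gene median by 0.18 on the log2 scale, and with it 10 integrin alpha chains were higher and 1 lower, in place of 7 and 2. Of the 20 calls, 15 kept their direction and call under each of the 15 alternatives in which they could be tested, among them ITGA3, ITGA5, ITGA6, ITGA7, ITGA9, ITGA10, ITGAV, ITGAM, LAMA3, LAMB2 and LAMB3 (higher) and ITGAE, LAMA4 and LAMB1 (lower). ITGAM passed the count filter through the diclofenac libraries alone, so the steadiness of its call is no support. The calls of ITGB1, ITGB5, ITGA8, LAMA1 and LAMC1 were each lost under at least 1 alternative.

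Laminin alpha chains carry the globular domains that receptors bind. LAMA3, the alpha chain of laminin-332, stood at 46.7, 43.1, 44.9 and 40.7 normalized CPM in diclofenac replicates 1 to 4, against 32.2, 27.4 and 27.4 in vehicle replicates 1 to 3. Every diclofenac library was above every vehicle library (log2 fold change 0.59, SE 0.0651, edgeR adjusted p = 4.66e-07). LAMA4, a chain of endothelial and mesenchymal basement membranes, stood at 9.42, 10.7, 10.6 and 9.22 normalized CPM under diclofenac, against 13.7, 15.1 and 13.4 under vehicle. The groups did not overlap and LAMA4 was lower under diclofenac (log2 fold change -0.49, SE 0.0811, edgeR adjusted p = 5.15e-05). LAMA1, a chain of embryonic basement membranes, stood at 12.4, 12.5, 12.1 and 10.7 under diclofenac, against 15.4, 15.6 and 14.8 normalized CPM under vehicle. The groups did not overlap, and its fall (log2 fold change -0.36, SE 0.0741, edgeR adjusted p = 4.44e-04) lost its call by total counts alone (-0.18, edgeR adjusted p = 0.0520).

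LAMA5, the alpha chain of the widespread laminins of adult epithelia, did not pass: its libraries ran from 36.3 to 43.7 normalized CPM under diclofenac and from 33.7 to 40.6 under vehicle. The ranges overlapped, the log2 fold change was 0.13 (SE 0.0694, edgeR adjusted p = 0.118), and its 95% interval ran from -0.01 to 0.27. Without vehicle replicate 1 the log2 fold change was 0.21 (edgeR adjusted p = 0.0165), without diclofenac replicate 4 it was 0.18 (edgeR adjusted p = 0.0402), and by total counts alone it was 0.31 (edgeR adjusted p = 0.00105). In the other direction, it was 0.07 without vehicle replicate 3 (edgeR adjusted p = 0.463) and 0.09 without vehicle replicate 2 or diclofenac replicate 1 (edgeR adjusted p = 0.365 and 0.279). LAMA5 shares 244 exon bases with ADRM1 on the opposite strand, and ADRM1 fell by 0.47 on the log2 scale; no source used here says whether reads were counted by strand. Fibroblast markers, which LAMA4 is often found with, gave 1 fall (COL1A1, at 12.5 ± 1.01 normalized CPM under diclofenac and 16.98 ± 1.33 under vehicle) and no rise among 4 tested of 7 (1 fall and 1 rise by total counts alone). Their summed level, most of it COL1A1, was 14.6 to 16.0 under diclofenac and 17.6 to 20.5 under vehicle. COL3A1 averaged 1.38 under diclofenac and 1.07 under vehicle, PDGFRB 0.501 and 0.378, and PDGFRA 0.558 and 0.699, none called. None of 5 endothelial markers could be tested, at summed levels of 0.631 to 1.13 normalized CPM under diclofenac and 0.268 to 0.446 under vehicle. The part of such cells in the LAMA4 values was not tested. LAMA2, the chain of muscle laminin, had 15 counts in all diclofenac and 6 in all vehicle libraries and was not tested.

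Among laminin beta chains, LAMB3 and LAMB2 rose and LAMB1 fell. LAMB3, which occurs in laminin-332, stood at 5.67, 5.17, 6.32 and 7.29 normalized CPM under diclofenac, against 1.62, 1.51 and 1.96 under vehicle. Every diclofenac library was far above every vehicle library (log2 fold change 1.85, SE 0.156, edgeR adjusted p = 1.98e-08). LAMB1, the beta chain of many embryonic and vascular laminins, stood at 65.6, 61.7, 67.3 and 61.0 normalized CPM under diclofenac, against 87.9, 85.4 and 84.2 under vehicle. All 4 diclofenac libraries were lower (log2 fold change -0.43, SE 0.0471, edgeR adjusted p = 5.06e-07). LAMB1 lies at 6 to 8 log2 CPM, where 57.5% of tested genes were lower. Their median log2 fold change was -0.17 and the 5th percentile -0.663, so LAMB1 lies within that span. LAMB1 shares 70 exon bases (0.86% of its exons) with DLD on the opposite strand, and DLD fell by 0.36 on the log2 scale.

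LAMB2, which takes the place of LAMB1 in other laminins, moved the other way. It stood at 125, 120, 123 and 119 normalized CPM under diclofenac, against 101, 97.7 and 92.6 under vehicle (log2 fold change 0.32, SE 0.0450, edgeR adjusted p = 7.08e-06). The groups did not overlap. LAMB4, a chain with little known function, had 4 counts in all diclofenac libraries and 1 in all vehicle libraries.

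LAMC1, the gamma chain that most laminins contain, stood at 178, 179, 168 and 169 normalized CPM under diclofenac, against 195, 181 and 190 under vehicle. The groups were close but did not overlap (log2 fold change -0.12, SE 0.0452, edgeR adjusted p = 0.0266), and by total counts alone the sign turned (0.06, edgeR adjusted p = 0.299). The call was also lost without diclofenac replicate 3 or 4 or vehicle replicate 1 or 3 (edgeR adjusted p = 0.0514, 0.0890, 0.108 and 0.0552). LAMC3, another gamma chain, had means of 4.91 ± 0.462 under diclofenac and 5.08 ± 0.413 under vehicle and did not pass (log2 fold change -0.04, 0.14 by total counts alone, edgeR adjusted p = 0.783).

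LAMA3 and LAMB3, which assemble in laminin-332, stood at unequal levels. Per kilobase of exon, the scale on which genes can be set beside each other, LAMA3 stood at 2.99 ± 0.176 normalized CPM under diclofenac and 1.98 ± 0.189 under vehicle. LAMB3 stood at 1.30 ± 0.196 per kilobase under diclofenac and 0.362 ± 0.0508 under vehicle. LAMB3 was the lower of the pair in both groups. For comparison, LAMC1 stood at 20.6 ± 0.697 per kilobase under diclofenac and 22.5 ± 0.855 under vehicle.

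**Figure D2:**
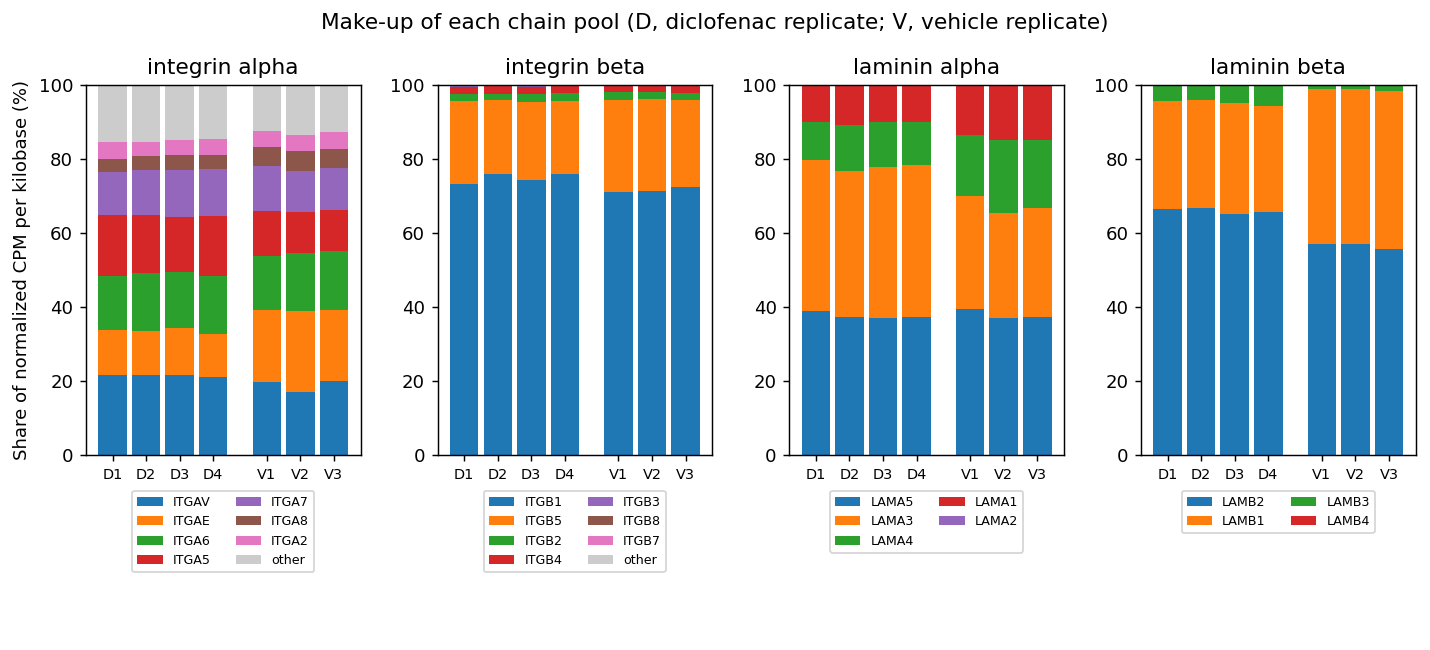
Share (percent) of each gene in the normalized CPM per kilobase of the integrin alpha, integrin beta, laminin alpha and laminin beta pools, 1 bar per library, with diclofenac libraries D1 to D4 left of vehicle libraries V1 to V3. LAMA3 makes up 40.4% of laminin alpha chains under diclofenac and 29.4% under vehicle, and LAMB1 29.2% and 42.1% of laminin beta chains.

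The make-up of the laminin pools shifted accordingly. LAMA3 made up 40.4 ± 0.660% of laminin alpha transcripts per kilobase under diclofenac and 29.4 ± 1.08% under vehicle, and LAMA5 37.6 ± 0.905% and 37.9 ± 1.43%. LAMA5 was the most abundant laminin alpha chain in vehicle libraries and LAMA3 in diclofenac libraries. LAMB2 made up 65.9 ± 0.724% of laminin beta transcripts under diclofenac and 56.5 ± 0.733% under vehicle, LAMB3 4.85 ± 0.753% and 1.45 ± 0.243%. LAMC1 made up 94.8 ± 0.454% of laminin gamma transcripts under diclofenac and 95.9 ± 0.384% under vehicle. These shares do not depend on the scaling of libraries, but they rest on exon lengths of GENCODE release 29 and not on the isoforms expressed.

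Ratios of 2 chains within a library are also free of the scaling, and 8 were compared with a two-sided exact permutation test; 7 libraries allow 35 splits and a smallest p of 0.0286. The count ratio LAMB3 to LAMB1 was 0.0865, 0.0837, 0.0939 and 0.120 in diclofenac replicates 1 to 4, against 0.0185, 0.0176 and 0.0233 in vehicle replicates 1 to 3, a 4.83-fold difference. LAMA3 to LAMA5 differed 1.38-fold in the same direction, and LAMA4 to LAMA5 was 0.646 times its vehicle value. Each of these 3 ratios had no overlap between groups and an exact permutation p of 0.0286 (adjusted p = 0.0381 over the 8 ratios). These tests repeat in another form the changes given above for the same libraries.

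**Figure D3:**
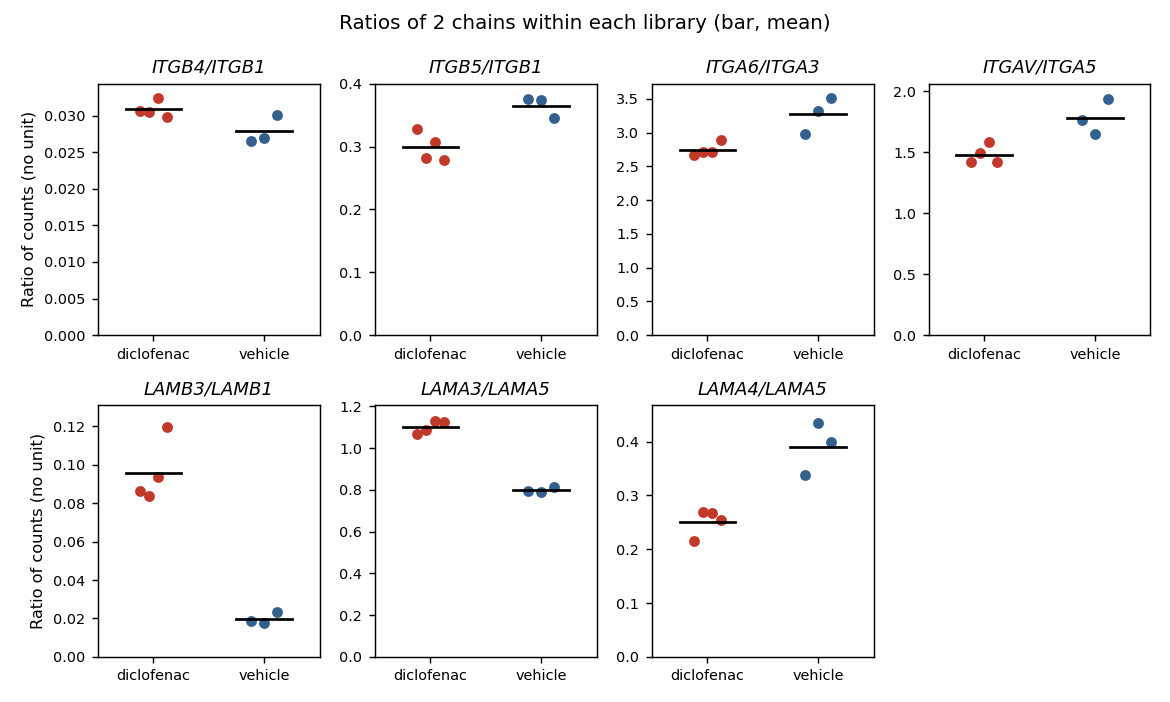
Count ratios of 2 chains for 7 pairs (no unit, axes from 0) in each library, with 4 diclofenac points left of 3 vehicle points and a bar at the mean. The groups are farthest apart for LAMB3 to LAMB1, at 0.0837 to 0.120 against 0.0176 to 0.0233, and overlap only for ITGB4 to ITGB1.

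Promoter sequence is shown for the pair of laminin chains whose start regions held a match to the AP-1 motif, the site of the FOS and JUN factors, written TGANTCA (both strands; no match shown overlaps another motif searched). RefSeq promoter windows (GRCh38.p14) were listed for 26 of the 38 genes, and the 250 bases before each listed start were searched. Capitals mark the match, each line holds 30 bases read 5′ to 3′ on the strand of the gene, and the build of the counts is not assumed to be the same.
LAMA3 (chr18:23872884-23872913, plus strand, first base of the match 125 bases before the start): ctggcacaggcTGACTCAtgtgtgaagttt
LAMA3 (chr18:23872940-23872969, plus strand, 69 bases before the start): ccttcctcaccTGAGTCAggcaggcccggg
LAMB3 (chr1:209651423-209651452, minus strand, 67 bases before 1 of 3 listed starts): gtcagccactcTGACTCAttcactttgggc

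LAMA3 and LAMB3 were the 2 members with such a match, of 26 with a window, and 8.06% of all 27305 genes in the table held one before at least 1 start. The other 12 genes had no window listed. Other motifs gave shares as follows, by gene: the GC box GGGCGG in 14 of the 26 members against 46.2% of all genes, the E box CACGTG in 1 against 7.73%, the TATA box TATAAA in 2 against 13%, and the ATF4 motif TGATGNAA in 1 against 3.89%. A match is a description of the letters and not a site in use.

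The laminin-binding integrin alpha chains all rose. ITGA6, the partner of ITGB4 in hemidesmosomes, stood at 29.96, 31.9, 30.5 and 31.5 normalized CPM under diclofenac, against 25.1, 27.5 and 27.2 under vehicle (log2 fold change 0.22, SE 0.0555, edgeR adjusted p = 0.00225). ITGA3, the laminin-332 receptor chain of epithelia, stood at 11.2, 11.8, 11.3 and 10.9 under diclofenac, against 8.40, 8.26 and 7.77 normalized CPM under vehicle (log2 fold change 0.47, SE 0.0792, edgeR adjusted p = 6.14e-05). For both genes every diclofenac library was above every vehicle library. ITGA7, known best from muscle, stood at 23.3, 24.6, 24.7 and 24.8 under diclofenac, against 20.2, 18.8 and 19.1 normalized CPM under vehicle, again without overlap (log2 fold change 0.33, SE 0.0590, edgeR adjusted p = 1.14e-04). ITGA3 changed more than ITGA6: the ratio of ITGA6 to ITGA3 was 2.67 to 2.89 in diclofenac and 2.99 to 3.51 in vehicle libraries (exact permutation p = 0.0286, adjusted p = 0.0381 over 8 ratios).

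Among the RGD-binding alpha chains, ITGA5 and ITGAV rose and ITGA8 fell. ITGA5 stood at 39.1, 37.6, 34.4 and 37.4 normalized CPM under diclofenac, against 24.0, 22.9 and 22.4 under vehicle. The groups were well apart (log2 fold change 0.68, SE 0.0585, edgeR adjusted p = 2.33e-08). ITGAV, which pairs with several beta chains in receptors for vitronectin and latent TGF-beta, stood at 55.7, 56.2, 54.6 and 53.1 under diclofenac, against 42.5, 37.8 and 43.4 normalized CPM under vehicle (log2 fold change 0.41, SE 0.0532, edgeR adjusted p = 3.32e-06). The ratio of ITGAV to ITGA5 was 1.42 to 1.59 in diclofenac and 1.65 to 1.94 in vehicle libraries (exact permutation p = 0.0286, adjusted p = 0.0381 over 8 ratios).

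ITGA8, a partner of ITGB1 known from kidney development, stood at 8.49, 8.56, 9.21 and 8.62 normalized CPM under diclofenac, against 10.2, 11.03 and 10.2 under vehicle. The groups did not overlap (log2 fold change -0.26, SE 0.0798, edgeR adjusted p = 0.00935), but by total counts alone the change was -0.08 with an edgeR adjusted p of 0.397. ITGA2B, the platelet fibrinogen receptor chain, had means of 4.80 ± 0.269 under diclofenac and 3.98 ± 0.831 under vehicle with overlapping libraries (edgeR adjusted p = 0.0763), and passed without vehicle replicate 2 (log2 fold change 0.44, edgeR adjusted p = 0.0107). Without vehicle replicate 3 its log2 fold change was 0.16 (edgeR adjusted p = 0.354).

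Collagen-binding chains were mixed. ITGA10, known from cartilage, rose by 0.62 on the log2 scale (SE 0.175, edgeR adjusted p = 0.00560), at 2.56 ± 0.388 normalized CPM under diclofenac and 1.67 ± 0.265 under vehicle. ITGA2, an epithelial and platelet collagen receptor chain, stood at 11.3, 9.74, 10.2 and 10.5 under diclofenac, against 8.72, 8.89 and 9.73 normalized CPM under vehicle. Its groups did not overlap, by a narrow gap, and the edgeR adjusted p was 0.0582 at a log2 fold change of 0.19 (SE 0.0842). Without diclofenac replicate 2 or vehicle replicate 3 it passed (edgeR adjusted p = 0.0422 and 0.0488). ITGA1 had means of 5.59 ± 0.359 and 6.19 ± 0.300 in diclofenac and vehicle libraries (log2 fold change -0.15, 0.03 by total counts alone, edgeR adjusted p = 0.201), and ITGA11 had 32 and 20 counts in all and was not tested. ITGA1 shares 475 exon bases with PELO on the same strand.

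**Figure D4:**
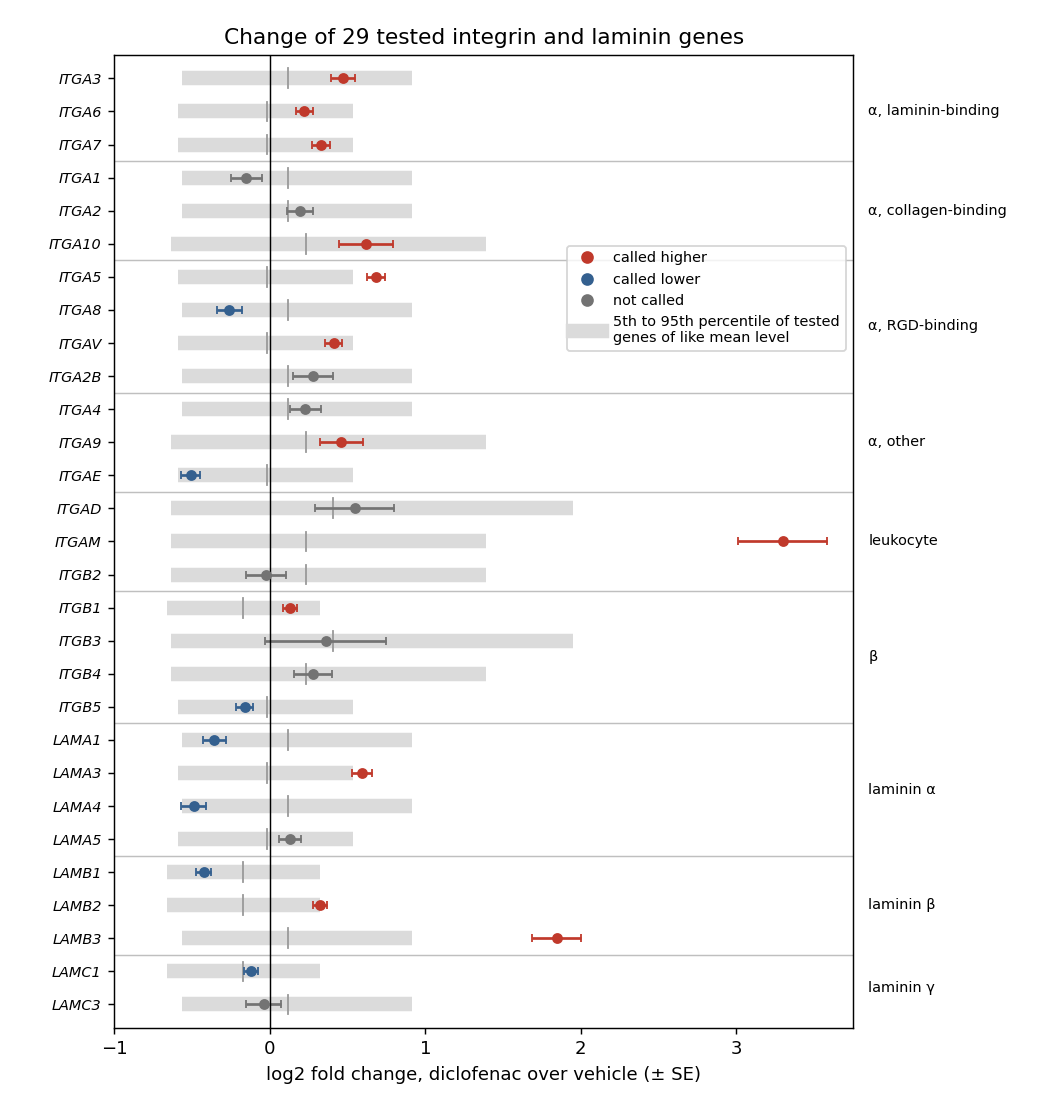
log2 fold change, diclofenac over vehicle, with SE, of 29 tested genes (4 against 3 libraries); grey bars span the 5th to the 95th percentile of all tested genes in the same band of mean level, with a tick at their median. ITGAM, LAMB3, ITGA5, LAMA3 and LAMB2 lie above that span. Calls of ITGA8 and LAMA1 are lost, and the signs of ITGB5 and LAMC1 turn, when libraries are scaled by total counts alone.

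Of the other alpha chains, ITGAE fell, ITGA9 rose and ITGA4 did not pass. ITGAE, the chain that pairs with ITGB7 to bind E-cadherin on lymphocytes, stood at 25.2, 24.8, 25.4 and 23.8 normalized CPM under diclofenac, against 33.6, 38.7 and 33.8 under vehicle. All 4 diclofenac libraries were lower (log2 fold change -0.51, SE 0.0599, edgeR adjusted p = 1.02e-06). Its partner ITGB7 had 11 counts in all diclofenac and 1 in all vehicle libraries, and shares 1886 exon bases with ZNF740 on the opposite strand. ITGAE itself shares 427 exon bases with HASPIN, a mitotic kinase gene on the opposite strand, which fell by 0.15 on the log2 scale; without knowledge of the strand in counting, their reads cannot be told apart there. ITGA9 rose by 0.46 (SE 0.136, edgeR adjusted p = 0.00753), at 4.15 ± 0.332 normalized CPM under diclofenac and 3.02 ± 0.518 under vehicle, and shares 535 exon bases with its antisense gene ITGA9-AS1. ITGA4 had means of 6.77 ± 0.518 and 5.77 ± 0.222 in diclofenac and vehicle libraries (log2 fold change 0.23, edgeR adjusted p = 0.0550) and passed without diclofenac replicate 4 (edgeR adjusted p = 0.0385).

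Per kilobase, ITGAE made up 12 ± 0.360% of the integrin alpha pool in diclofenac libraries and 20.05 ± 1.38% in vehicle libraries. ITGAV made up 21.5 ± 0.320% under diclofenac, the first place in all 4 libraries, and 19.0 ± 1.59% under vehicle. ITGA5 made up 15.8 ± 0.704% under diclofenac and 11.5 ± 0.520% under vehicle, and ITGA6 15.3 ± 0.464% and 15.4 ± 0.603%. In vehicle libraries ITGAV was above ITGAE in replicates 1 and 3 and below it in replicate 2, and their shares lay within their spread of each other, as did those of ITGA5 and ITGA6 in diclofenac libraries.

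Among the beta chains 1 of 4 tested rose and 1 fell, both by little. ITGB1, the shared partner of most alpha chains, stood at 119, 127, 119 and 128 normalized CPM under diclofenac, against 113, 110 and 114 under vehicle. The groups did not overlap, but the difference was small (log2 fold change 0.13, SE 0.0445, edgeR adjusted p = 0.0169) and its call was lost without diclofenac replicate 4 (edgeR adjusted p = 0.0505) and without vehicle replicate 2 (edgeR adjusted p = 0.0896). ITGB5, an ITGAV partner that binds vitronectin, stood at 39.2, 35.8, 36.4 and 35.5 under diclofenac, against 42.6, 41.2 and 39.3 normalized CPM under vehicle. The groups were separated by a narrow gap. Its log2 fold change was -0.16 (SE 0.0527, edgeR adjusted p = 0.0134), the call was lost without vehicle replicate 1 (edgeR adjusted p = 0.0630), and the sign turned by total counts alone (0.02, edgeR adjusted p = 0.787).

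Relative to ITGB1, ITGB5 stood at 0.278 to 0.329 in diclofenac and 0.345 to 0.376 in vehicle libraries, without overlap, with an exact permutation p of 0.0571 (adjusted p = 0.0571 over 8 ratios). ITGB4, the hemidesmosome chain, had means of 3.80 ± 0.0955 under diclofenac and 3.13 ± 0.263 under vehicle (log2 fold change 0.28, 95% interval 0.04 to 0.52, edgeR adjusted p = 0.0581), and passed without vehicle replicate 3 (edgeR adjusted p = 0.0468). Its ratio to ITGB1 overlapped between the groups (exact permutation p = 0.0571). ITGB3, the partner of ITGA2B in platelets, did not pass at 39 counts in all diclofenac and 21 in all vehicle libraries (log2 fold change 0.36, edgeR adjusted p = 0.446). Its log2 fold change was 0.10 without vehicle replicate 1, 0.57 without vehicle replicate 3 and 0.59 without diclofenac replicate 4, none called. ITGB8 had 37 and 13 counts, 1.97 times as many per TMM-scaled library size (exact 95% Poisson limits 1.02 and 4.04, which cover counting error alone), and ITGB6 had 1 and 0.

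Per kilobase, ITGB1 made up 74.7 ± 1.39% of integrin beta transcripts under diclofenac and 71.5 ± 0.788% under vehicle, and ITGB5 20.8 ± 1.24% and 24.3 ± 0.924%. ITGB4 made up 2.05 ± 0.0646% and 1.77 ± 0.145%. Summed per kilobase, the alpha pool stood at 31.0 ± 0.443 normalized CPM under diclofenac and 26.5 ± 0.358 under vehicle, and the beta pool at 27.4 ± 0.618 and 26.1 ± 0.427. The laminin alpha pool was far lower than the beta and gamma pools, at 7.41 ± 0.444, 26.9 ± 0.743 and 21.8 ± 0.646 under diclofenac and 6.71 ± 0.441, 25.1 ± 0.816 and 23.4 ± 0.805 under vehicle.

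Leukocyte integrins pair ITGB2 with ITGAL, ITGAM, ITGAX or ITGAD on blood cells. ITGAM, the alpha chain of the complement receptor of myeloid cells, stood at 1.59, 1.66, 1.62 and 1.72 normalized CPM under diclofenac, against 0.122, 0.194 and 0.179 under vehicle. These were 161 counts in all diclofenac and 11 in all vehicle libraries, with no overlap (log2 fold change 3.30, SE 0.286, edgeR adjusted p = 2.67e-08). With 3, 4 and 4 counts in the vehicle libraries, ITGAM passed the count filter through the diclofenac libraries alone. Its direction, p-value and lack of overlap therefore describe the counts and are no support. ITGAX, a myeloid chain and neighbour of ITGAM in the genome, had 42 and 1 counts, 29.1 times as many per TMM-scaled library size (exact 95% Poisson limits 4.95 and 1177), and was not tested. ITGAL had 24 and 8 counts, 2.08 times as many on the same scale (limits 0.904 and 5.35).

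Their partner ITGB2 did not pass, and its sign turned by total counts alone (0.15). It had means of 3.51 ± 0.288 normalized CPM under diclofenac and 3.56 ± 0.374 under vehicle, with overlapping libraries (log2 fold change -0.03, 95% interval -0.28 to 0.22, edgeR adjusted p = 0.868). ITGAD had 91 and 43 counts in all and did not pass (log2 fold change 0.55, edgeR adjusted p = 0.0707), though it passed without diclofenac replicate 1 (edgeR adjusted p = 0.0388).

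Of 12 leukocyte markers, 9 had too few counts to be tested, and the other 3 (CD79A, CD14 and CSF1R) were all higher under diclofenac, at 56, 99 and 53 counts in all diclofenac and 5, 32 and 4 in all vehicle libraries. CD79A, CSF1R and CD14 passed the count filter through the diclofenac libraries alone, so their direction is no support. CD14 had 12, 9 and 11 counts in vehicle replicates 1 to 3. The summed level of the 12 was 2.50 to 3.42 normalized CPM under diclofenac and 1.03 to 1.21 under vehicle. This sum includes the 3 tested markers and is no support either. FCER1G and LYZ had 15 and 2 counts in all diclofenac and 16 and 3 in all vehicle libraries. SPI1 and MS4A1 had 32 and 14 counts against 14 and 1, and CD3D and CD3E had 1 each against 0. CD2 and TYROBP had no count in any library, and the pan-leukocyte marker PTPRC had 6 counts in all diclofenac and 2 in all vehicle libraries. The part of other cells in the ITGAM and ITGAX counts was not tested. Among tested genes with a mean of 0 to 2 log2 CPM, like ITGAM, the median log2 fold change was 0.23 and the 95th percentile 1.39.

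Genes that work with integrins and laminins were taken from 8 lists of known partners, and no list was tested as a whole. The counts stand beside 30.2% higher and 29.5% lower among all tested genes (8615 higher and 3039 lower of 18311 by total counts alone). These shares move with the level: from 35.9% higher and 11.1% lower at 0 to 2 log2 CPM to 15.9% higher and 57.5% lower at 6 to 8, and 10.1% and 74.4% at 8 or more. Of 17 tested integrin ligands other than laminins, 9 rose and 2 fell (median log2 fold change 0.24; 12 and 1 by total counts alone). CCN1, a matricellular ligand of alpha V integrins, averaged 23.5 ± 1.19 normalized CPM under diclofenac and 12.97 ± 0.715 under vehicle (log2 fold change 0.86, SE 0.0680, edgeR adjusted p = 8.73e-09). ADAM15, a disintegrin protease, fell by 0.38 (SE 0.0461).

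Of 7 tested tetraspanins, membrane organisers that bind integrins, 6 fell, and CD37, a leukocyte member, rose (1.28 ± 0.0317 normalized CPM under diclofenac and 0.915 ± 0.0350 under vehicle). Of the 6 that fell, CD63 and CD151 lie at 6 to 8 log2 CPM and CD81 above 8, levels at which most tested genes were lower. CD151, which binds the laminin receptors ITGA3 and ITGA6 directly, averaged 107 ± 3.16 normalized CPM under diclofenac and 159 ± 7.92 under vehicle (log2 fold change -0.58, SE 0.0455, edgeR adjusted p = 8.42e-09). CD81 averaged 332 ± 9.89 under diclofenac and 493 ± 23.5 under vehicle (log2 fold change -0.57, SE 0.0471). By total counts alone 5 fell and 1 rose. With DESeq2 size factors 6 fell and 0 rose, so the call of CD37 (edgeR adjusted p = 0.0481 with TMM factors) was lost. CD151 was also the 1 of 3 tested hemidesmosome genes that was called (2 rose and 1 fell by total counts alone), while PLEC and DST, the cytoskeletal linkers, had log2 fold changes of -0.02 and -0.04 and COL17A1 had 31 counts in all diclofenac and 1 in all vehicle libraries.

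Other basement membrane genes split evenly, with 5 higher and 5 lower of 17 tested (8 and 4 by total counts alone). SPARC, 1 of the 5 higher, had 6, 1 and 3 counts in vehicle replicates 1 to 3 and passed the count filter through the diclofenac libraries alone. COL18A1, the collagen whose fragment is endostatin, averaged 98.5 ± 8.71 normalized CPM under diclofenac and 163 ± 9.06 under vehicle. It fell by 0.72 on the log2 scale (SE 0.0592), and AGRN, the proteoglycan agrin, by 0.47 (SE 0.0616). Of those that rose, HSPG2 averaged 10.5 ± 0.645 normalized CPM under diclofenac and 5.84 ± 0.254 under vehicle. HSPG2 rose by 0.84 (SE 0.0899) and COL7A1 by 0.42 (SE 0.0759). Laminin receptors that are not integrins gave 3 rises and 4 falls of 9 tested (5 and 2 by total counts alone). The syndecan SDC4 rose by 0.57 (SE 0.0736), and RPSA, a ribosomal protein also described as a laminin receptor, fell by 0.50 (SE 0.0548); reads of RPSA may be shared with its many pseudogene copies.

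Inside the cell, 7 of 33 tested adhesion adaptors and kinases rose and 9 fell, with a median of 0.01 on the log2 scale. By total counts alone 17 rose and 4 fell. ITGB1BP1, an inhibitor of ITGB1 activation, fell by 0.48 (SE 0.0436) and the actin crosslinker ACTN4 by 0.43 (SE 0.0440). Of 14 tested genes of integrin traffic, 4 rose and 4 fell (9 and 2 by total counts alone). CLIC4, which is recruited to integrins on endosomes, averaged 280 ± 6.65 normalized CPM under diclofenac and 151 ± 11.5 under vehicle, and the endosomal GTPase RAB5A rose by 0.49 (SE 0.0529). Of 7 tested proteases that can cut laminins, 3 rose and 2 fell. PLAT, the tissue plasminogen activator, fell by 0.46 (SE 0.0482) and TLL2 by 0.63 (SE 0.119). PLAU rose by 1.64 (SE 0.268), MMP2 by 1.07 (SE 0.144) and MMP14 by 0.65 (SE 0.163). The levels of these 3 were low, with means of 1.30, 3.52 and 3.01 normalized CPM under diclofenac and 0.424, 1.66 and 1.93 under vehicle. PLAU, with 6, 12 and 10 counts in vehicle replicates 1 to 3, passed the count filter through the diclofenac libraries alone. Its direction is therefore no support.

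**Figure D5:**
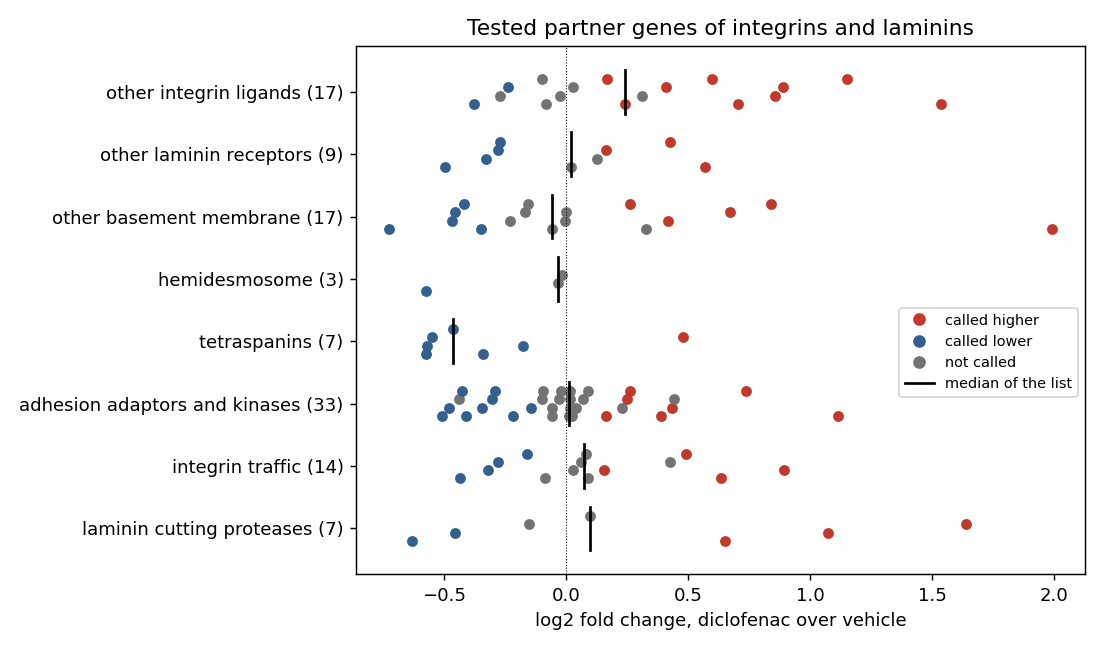
log2 fold change, diclofenac over vehicle, of the tested genes of 8 partner lists (number tested in brackets), 1 point per gene, with a bar at the list median. Tetraspanins lie lowest, with a median of -0.47, and other integrin ligands highest, with a median of 0.24; the splits of adaptors, traffic, basement membrane and laminin receptor lists shift towards rises when libraries are scaled by total counts alone.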

How the data were processed

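The deposited values were raw counts per gene, whole numbers with no normalization, 1 column per library. Per the submitters' processing notes DESeq and the mouse build GRCm38 were named, without roles; the rows carry human symbols, and the aligner, counter, annotation and use of strand are not given in the sources used here. Per the labels' protocols, libraries were made with a directional kit. Counts were filtered with filterByExpr (minimum count 10, minimum total 15; 18311 genes with 99.86% of counts), scaled by TMM and tested in edgeR 4.0.16 (R 4.3.3) by quasi-likelihood over all genes and 7 libraries, group as the only term. SE came from the F statistic. The 95% intervals of log2 fold changes took normal limits on that SE, which makes them somewhat too narrow for 7 libraries. The fit was tested on simulated data. Alternatives were other scalings, DESeq2 1.42.0, limma 3.58.1 with trend (prior count 2), other filters, a replicate block and leaving out each library. Bands of mean level were 2 log2 CPM wide. Per-kilobase levels used exons of GENCODE release 29 (GRCh38). Pairs of libraries of 1 group differed beyond sampling noise (chi-square per degree of freedom 2.17 to 7.40), so none was merged.

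Members, lists, ratios and motifs were chosen with earlier results of these data known. Tested members are named, except 1 that is not reported here, those with a mean of at least 10 normalized CPM in either group, or called at 2-fold, by library. From each list the 2 called genes with the largest change above the median level are named.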

Additional observations from a re-analysis of the deposited data

Results flagged for a closer look

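In 2 of the 30 tested members, 1 diclofenac library lay apart from the other 3 by more of the group's range than Dixon's 95% critical value for 4 samples allows; chance gives about 1 in 20 such groups. Both were diclofenac replicate 1. For ITGA7 it stood at 23.3 normalized CPM, against 24.6 to 24.8 in the other diclofenac libraries. For LAMC3 it stood at 4.22 normalized CPM, against 5.09 to 5.17. Without diclofenac replicate 1, ITGA7 stayed called in the same direction, and the log2 fold change of LAMC3 was 0.025, not called.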

How the results depend on the processing

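DESeq2 size factors, the DESeq2 Wald test and limma with trend left the call and direction of all 30 tested members as they were. Over all alternatives, 393 of the values for single members kept direction and side of the threshold, 25 passed it anew, 16 no longer passed and 11 reversed. By total counts alone, calls over all genes were 8615 higher and 3039 lower, integrin alpha chains had 1 lower, integrin beta chains 2 higher and 0 lower, leukocyte chains 2 higher and laminin chains 2 lower, and the log2 fold changes of ITGA1 (0.029), ITGB2 (0.15), ITGB5 (0.019), LAMC1 (0.058) and LAMC3 (0.14) reversed. With upper-quartile factors, integrin alpha chains had 1 lower, beta chains 2 higher and 0 lower and leukocyte chains 2 higher, and ITGB2 (0.061) and LAMC3 (0.049) reversed. Without a filter there were 0 beta chains higher and 2 leukocyte chains higher; with 1 CPM in every library of a group 2 beta chains were higher. Leaving out 1 library gave 0 to 2 beta chains higher, 0 to 1 lower and 1 to 2 leukocyte chains higher, with log2 fold changes from -0.091 to 0.060 for ITGB2 and from -0.11 to 0.025 for LAMC3. The causes were not tested. The replicate numbers are shared by name only (correlations of deviations 0.0364, 0.0132 and -0.101), and with the replicate block 0 beta chains were higher and 9918 genes in all were called, against 10937. The ratios kept their sign in every alternative run, but 1 library left out takes the exact test above 0.05 by design. The 8 untested members had too few counts for a test at this depth, and whether they are expressed was not tested.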
